A study of Homo sapiens with 11 samples.

Results

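Cardiomyocytes derived from the established human induced pluripotent stem cell line WTC11 were compared between the first and the last collection of a long culture. The comparison took the 4 wells of Day 30 and the 4 wells of Day 113, which make up 8 of the 11 wells sequenced, and all 19990 genes of the count table. All wells came from a single differentiation, which was directed with the GSK3 inhibitor CHIR99021 and then with IWP2, an inhibitor of Wnt secretion, and all were kept in B27 medium containing insulin. Cardiomyocyte purity had been checked by flow cytometry for cardiac troponin T on Day 16, before the first collection, and no perturbation or genotype separated the groups. The 3 wells of Day 60 entered the model that estimates the spread between wells, and are cited below only to place a few levels between both ends. The question was how far the transcript levels at the end of the course stood from those at its start, including abundant genes with a small change. The replicates are wells, so the spread covers neither another differentiation nor another line, and effects of the collection and of the day cannot be told apart.

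Cardiomyocytes made from pluripotent cells resemble cells of the fetal heart. During late fetal and postnatal growth the heart exchanges contractile protein isoforms, such as slow skeletal for cardiac troponin I and atrial for ventricular regulatory light chain, and shifts its fuel from glucose and lactate towards fatty acids. Heart muscle cells also leave the cell cycle, and their ribosome content and matrix change with growth. Long culture is used to move cells made in the dish along this course.

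Library totals of the 8 wells compared lay between 24.1 and 34.5 M counts (M is 1000000), and the square root of the common dispersion between wells (the biological coefficient of variation) was 0.282. Levels are given below as counts per 1000000 (CPM) after trimmed-mean scaling, which moved library sizes by factors of 0.985 to 1.04. CPM is not divided by transcript length, so a level is compared between days of a gene and not between genes. One Day 113 well, replicate 2, stood apart by transcript length. Among 2160 abundant genes with a known length, short transcripts (at most 2971 bases) exceeded long ones (at least 6827 bases) by 0.67 in median log2 ratio in that well. The same difference ran from -0.13 to 0.06 in the other Day 113 wells and from -0.10 to 0.12 in the Day 30 wells. Many results that this well moves are given with and without it, but not all. A correction for GC content and transcript length gave 7384 called genes in place of 6889.

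At an adjusted p under 0.05, 6889 genes differed between the days, 34.5% of those tested, with 3459 higher at Day 113 (17.3%) and 3430 lower (17.2%). The median log2 fold change over all genes was -0.0175. The levels of all 4 wells of a day lay above those of all 4 wells of the other day for 7012 genes (35.1%), and 5971 of these were also called. A change larger than 1.5-fold was called for 2180 genes (10.9%), of which 1019 were higher and 1161 lower. Tests against the same fold called 1698 genes by DESeq2 and 1500 by limma-voom. Among the called genes, 2491 had an estimate of at most 1.5-fold and 2637 an estimate of at least 2-fold. Summed over genes, the gains at Day 113 came to 12.2% of all counts and the losses to 13.8%. Just 399 genes held 50% of the gain, and 311 held 50% of the loss. Protein-coding genes were called more often than long noncoding RNAs, at 40.7% of 15084 against 16.8% of 2806, and the latter had a median level of 0.716 CPM against 23.0 CPM.

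**Figure D1:**
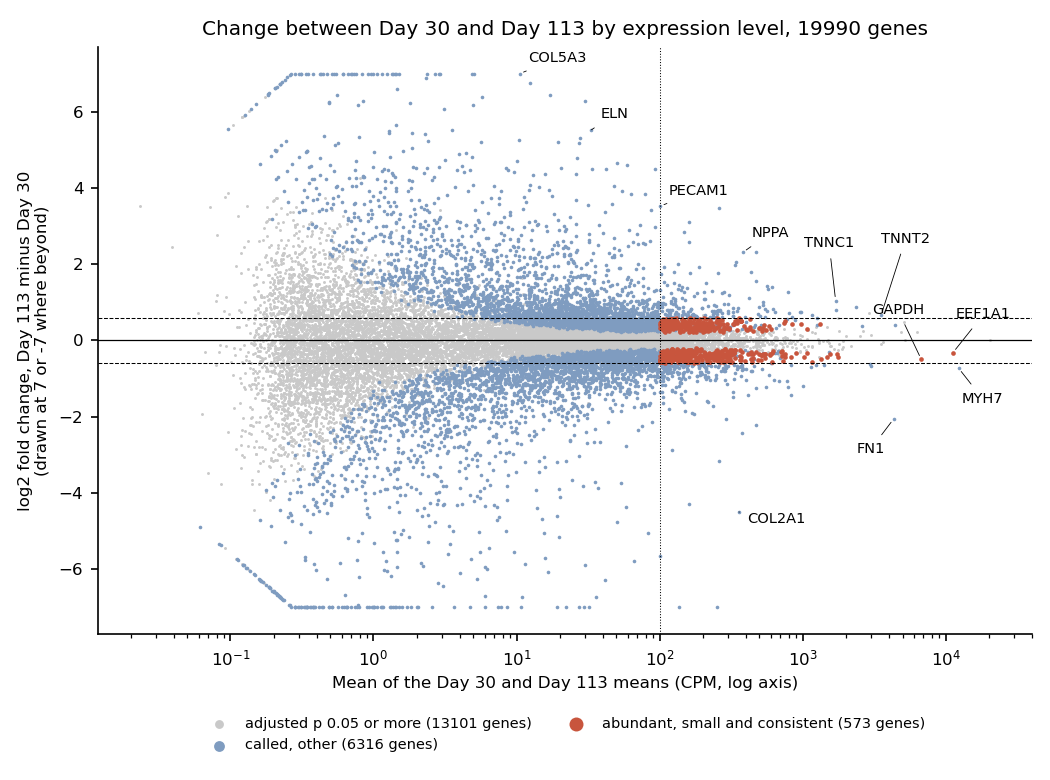
Each point is a gene, placed by its mean level in CPM (log axis) and by its log2 fold change between Day 30 and Day 113, with colour for the call. The dashed lines mark 1.5-fold and the dotted line 100 CPM: calls below 1 CPM need large folds, while above 100 CPM 573 genes (red) were called with small, non-overlapping changes.

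The size of a called change depended on the level at which it was measured. Of the 4471 genes below 1 CPM, 10.1% were called, with a median size of 4.0 on the log2 scale and not a single estimate at or under 1.5-fold. Of the 2101 genes between 100 and 1000 CPM, 48.8% were called, with a median size of 0.48, and 64.9% of those calls were at most 1.5-fold. The median standard error fell from 1.00 to 0.10 between these ranges. Genes with a mean of at least 100 CPM over the 8 wells are called abundant below. They numbered 2173, held 65.7% of all counts, and 1056 of them were called (48.6%), 487 higher and 569 lower. The direction differed by transcript length. Of the 540 shortest (at most 2971 bases), 145 were higher and 118 lower, with a median log2 change of 0.03. Of the 540 longest (at least 6827 bases), 86 were higher and 151 lower, with a median of -0.10. The cause was not tested.

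Among the abundant genes, 573 (26.4%) met a joint rule of an adjusted p under 0.05, no overlap between the 4 wells of each day, and a change of at most 1.5-fold. The separation of the days and the small size of the change were thus fixed by the choice for these genes. Of these, 262 were higher and 311 lower at Day 113, and 567 were protein coding. Together they held 15.7% of the Day 30 counts. Their median change was 0.40 on the log2 scale, and the smallest was 0.21. In sum, the lower genes fell by 26900 CPM and the higher ones gained 14800 CPM. In a bulk sample, fewer cells of a type and less RNA per cell cannot be told apart, here or in any result below.

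Several of the most abundant lower genes act in translation or glycolysis. EEF1A1, the elongation factor that carries aminoacyl-tRNA to the ribosome (chromosome 6, 73515750 to 73521032), was at 11765, 12849, 12576 and 12857 CPM in the Day 30 wells and at 9103, 11225, 9439 and 10231 CPM in the Day 113 wells. Every Day 113 well lay below every Day 30 well, and the level was 1.25-fold lower (log2 fold change -0.32 ± 0.10 SE, adjusted p 0.021). GAPDH, a glycolytic enzyme often used to normalise other genes (chromosome 12, 6534517 to 6538371), was at 8026, 8401, 7514 and 7726 CPM on Day 30 and at 5004, 6224, 5757 and 5423 CPM on Day 113. Its wells did not overlap either, and it was 1.41-fold lower (-0.50 ± 0.10 SE, adjusted p 0.0012). Both genes have near-identical pseudogene copies, as have RPLP0, HSP90AB1, TPT1, FTH1, HNRNPA2B1 and the tubulin TUBA1B below, so their counts could be split among loci.

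RPLP0, a protein of the ribosomal stalk and also a common reference gene, was 1.36-fold lower, from 2030 ± 98 CPM (SD, n = 4) to 1490 ± 312 (adjusted p 0.012). EEF1G, a subunit of the elongation factor exchange complex, was 1.29-fold lower and RACK1, a scaffold protein of the small ribosomal subunit, was 1.36-fold lower. RACK1 stood at 971, 978, 950 and 932 CPM on Day 30 and at 652, 840, 643 and 689 CPM on Day 113. For these 3 translation genes the Day 113 well nearest to Day 30 was replicate 2, the well with the short-transcript excess. Without that well RPLP0 was at -0.56 (adjusted p 0.0013), further from Day 30.

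In glycolysis, PFKP, the platelet isoform of phosphofructokinase, was 1.41-fold lower. PGK1, which makes ATP from 1,3-bisphosphoglycerate, was 1.28-fold lower. PGK1 stood at 1696, 1842, 1548 and 1921 CPM on Day 30 and at 1122, 1454, 1478 and 1426 CPM on Day 113, so that the days came close to each other without overlapping. The other abundant genes that were lower served diverse functions. FLNC, the muscle filamin that crosslinks actin at Z-discs, was 1.48-fold lower, with 1586, 1259, 1226 and 1471 CPM against 1030, 855, 992 and 859 CPM. With GC content and transcript length corrected for, its log2 change was -0.39 in place of -0.57. GNAS, the stimulatory G protein subunit downstream of beta-adrenergic receptors, was 1.37-fold lower, from 1704 ± 64.8 to 1248 ± 88 CPM (SD, n = 4). The constitutive chaperone HSP90AB1 was 1.27-fold lower, the microtubule-associated protein MAP4 1.27-fold lower, and the lysosomal membrane protein LAPTM4B 1.35-fold lower.

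Among the abundant genes with a small increase, the wells of CTNNB1 were close together on both days. CTNNB1 encodes beta-catenin, which links cadherins to actin at cell junctions and carries the Wnt signal (chromosome 3, 41199505 to 41240443). It was at 531, 517, 558 and 552 CPM on Day 30 and at 646, 665, 664 and 661 CPM on Day 113, a 1.22-fold higher level (0.29 ± 0.08 SE, adjusted p 0.008). The 4 Day 113 wells lay close together and clear of the highest Day 30 well. DKK3, a secreted protein of the dickkopf family, was similarly tight, at 452, 472, 445 and 502 CPM against 632, 619, 610 and 601 CPM (1.32-fold higher, adjusted p 0.0015).

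MYLK3, the cardiac myosin light chain kinase that phosphorylates the ventricular regulatory light chain, was at 641, 574, 573 and 696 CPM on Day 30 and at 776, 903, 810 and 924 CPM on Day 113 (1.37-fold higher, adjusted p 0.0014). SLC16A1, a lactate and pyruvate transporter, was at 583, 602, 585 and 695 CPM against 791, 875, 1004 and 863 CPM (1.43-fold higher, adjusted p 0.00082). FTH1, the heavy chain of the iron store ferritin, was at 796, 895, 840 and 823 CPM against 929, 1423, 1121 and 1020 CPM (1.34-fold higher, adjusted p 0.01). Its highest well was Day 113 replicate 2, and without that well the change was 0.29 (adjusted p 0.016) in place of 0.42. The imprinted gene PEG10 was 1.35-fold higher, the peptide-amidating enzyme PAM 1.34-fold, the RNA-binding protein HNRNPA2B1 1.30-fold, the calcium-binding chaperone CALR 1.25-fold, the tubulin TUBA1B 1.23-fold, the nuclear protein NUCKS1 1.21-fold and the nuclear matrix protein MATR3 1.19-fold.

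**Figure D2:**
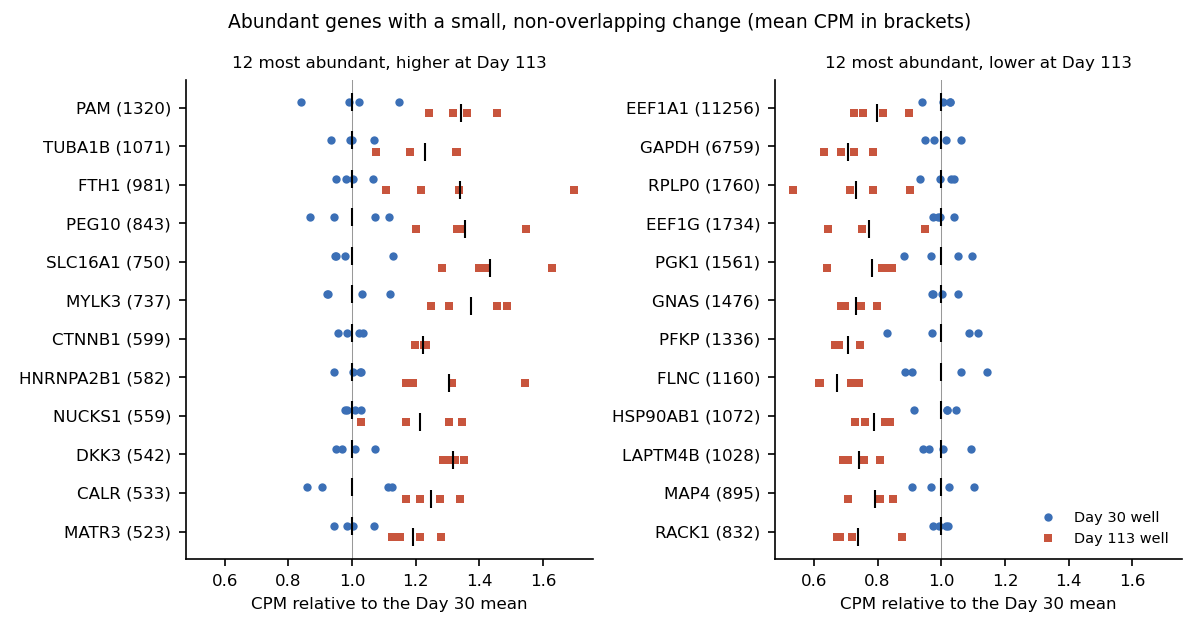
Levels in each Day 30 well (circles) and Day 113 well (squares) of the 12 most abundant higher and 12 most abundant lower genes with a small consistent change, divided by the gene's Day 30 mean; black ticks are day means. The rule of choice fixed that the days are separated and the change is small for every gene shown. Sizes run from 1.19-fold higher for MATR3 to 1.48-fold lower for FLNC.

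Some of these small changes lost their call when a well was left out. Of the 24 genes above, 9 lost their call under at least 1 alternative while keeping their direction. EEF1A1 was at an adjusted p of 0.0598 without Day 30 replicate 2 and of 0.0611 without Day 113 replicate 3. PGK1 was at 0.056 when Day 113 replicate 1 was left out, and at 0.0648 and 0.0672 when Day 30 replicates 2 and 4 were. PAM was at 0.0604, 0.0864 and 0.067 without Day 30 replicates 1 and 3 and Day 113 replicate 4, and CALR at 0.0957 and 0.0971 without Day 30 replicates 1 and 4. HNRNPA2B1 was at 0.059, NUCKS1 at 0.0517, MAP4 at 0.0896 and MATR3 at 0.165 once GC content and transcript length were corrected for. MAP4 was also at 0.0505 without Day 30 replicate 1. TUBA1B was above 0.05 when any of 5 wells was left out (0.0593 to 0.0966: Day 30 replicates 1, 3 and 4 and Day 113 replicates 2 and 4). NUCKS1 was so for 5 wells (0.055 to 0.0809: the same 3 of Day 30 and Day 113 replicates 1 and 4) and MATR3 for 6 (0.0621 to 0.115: Day 30 replicates 1, 2 and 3 and Day 113 replicates 1, 3 and 4). The other 15, among them GAPDH, CTNNB1, DKK3, MYLK3 and SLC16A1, stayed called under all 19 alternatives.

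The net change did not always describe the path. For 372 of the 573 genes (64.9%) the Day 60 mean lay between the Day 30 and Day 113 means, against 69.9% of all called genes. GAPDH stood at 8199 ± 847 CPM (SD, n = 3) on Day 60 and PGK1 at 2054 ± 214, both above their Day 30 means, and MYLK3 stood at 520 ± 16.9 CPM, below its Day 30 mean. DKK3 was at 639 ± 45.7 CPM on Day 60, above its Day 113 mean. These Day 60 positions are a description, and no test of them was made.

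The largest shifts in mean CPM were ranked among genes that were called and whose wells did not overlap, so the separation of the days was fixed by the choice. COL1A1 and COL3A1, described with the matrix genes, have wells that overlap and were among the genes left out of that ranking. The losses included a myosin, fibronectin and single enzymes of translation and glycolysis. MYH7, the beta myosin heavy chain that drives the slow, economical sarcomere of the ventricle (chromosome 14, 23412740 to 23435660), was at 18825, 14292, 11897 and 16635 CPM on Day 30 and at 10303, 9381, 9355 and 8067 CPM on Day 113. The days did not overlap, and the level was 1.66-fold lower (-0.73 ± 0.13 SE, adjusted p 0.00052). MYH7 shares most of its sequence with its neighbour MYH6, so reads could be exchanged between them. FN1, fibronectin, a matrix glycoprotein of developing and injured tissue (chromosome 2, 215360865 to 215436068), was at 5234, 10350, 8855 and 3530 CPM against 3099, 819, 1786 and 985 CPM. It was 4.18-fold lower (-2.06 ± 0.37 SE, adjusted p 0.0005), but its Day 30 wells were widely spread, and its Day 60 mean of 625 ± 111 CPM lay below both ends.

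EEF2, the factor that moves the ribosome along the message (chromosome 19, 3976056 to 3985463), was similar in all wells of a day. It stood at 3872, 3683, 3730 and 3435 CPM on Day 30 and at 2198, 2548, 2279 and 2208 CPM on Day 113 (1.59-fold lower, adjusted p 3.1e-05). ENO1, the glycolytic enolase, was 1.55-fold lower, from 3607 ± 296 to 2331 ± 375 CPM (SD, n = 4). ZFP36L1, a protein that speeds decay of AU-rich messages, was 2.69-fold lower, at 1341, 1131, 1163 and 1218 CPM against 471, 456, 516 and 359 CPM. FBN2, the fibrillin of fetal microfibrils, was 2.3-fold lower, while FBN1, the fibrillin of adult tissue, was 2.44-fold higher (135 ± 37.8 against 329 ± 136 CPM, SD, n = 4, adjusted p 0.0011).

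Among genes so ranked, the largest gain belonged to TNNT2, cardiac troponin T, the subunit that anchors the troponin complex to tropomyosin (chromosome 1, 201359014 to 201377680). It was at 2881, 2578, 2260 and 3273 CPM on Day 30 and at 3681, 5816, 3854 and 3985 CPM on Day 113 (1.58-fold higher, adjusted p 0.0032). Day 113 replicate 2 was far above the other 3, and without it the log2 change was 0.48 (adjusted p 0.0059) in place of 0.66. TNNC1, the calcium-binding troponin of heart and slow muscle, was at 1074, 1107, 847 and 1433 CPM against 1673, 3317, 2179 and 2002 CPM (2.06-fold higher, adjusted p 0.00041), and was at 0.81 without that well in place of 1.04. The smooth muscle and nonmuscle light chain MYL9 was 1.75-fold higher and the ventricular regulatory light chain MYL2 4.98-fold higher. Without Day 113 replicate 2 their log2 changes were 0.68 in place of 0.81 and 2.14 in place of 2.32. MYL2 stood at 157, 161, 119 and 196 CPM against 634, 1068, 960 and 493 CPM.

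Other large gains lay outside the sarcomere. HSPA8, the constitutive cytosolic chaperone of the HSP70 family (chromosome 11, 123057489 to 123062462), was at 266, 332, 320 and 311 CPM on Day 30 and at 825, 894, 715 and 863 CPM on Day 113. The days were far apart and the wells of each close together, for a 2.68-fold higher level (adjusted p 6.7e-08). A2M, a secreted protease inhibitor, was at 351, 410, 328 and 264 CPM against 942, 867, 858 and 898 CPM (2.63-fold higher). TGM2, which crosslinks matrix proteins, was 1.58-fold higher, and the natriuretic peptide gene NPPA 4.96-fold higher, at 128 ± 45.7 against 636 ± 113 CPM (SD, n = 4).

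**Figure D3:**
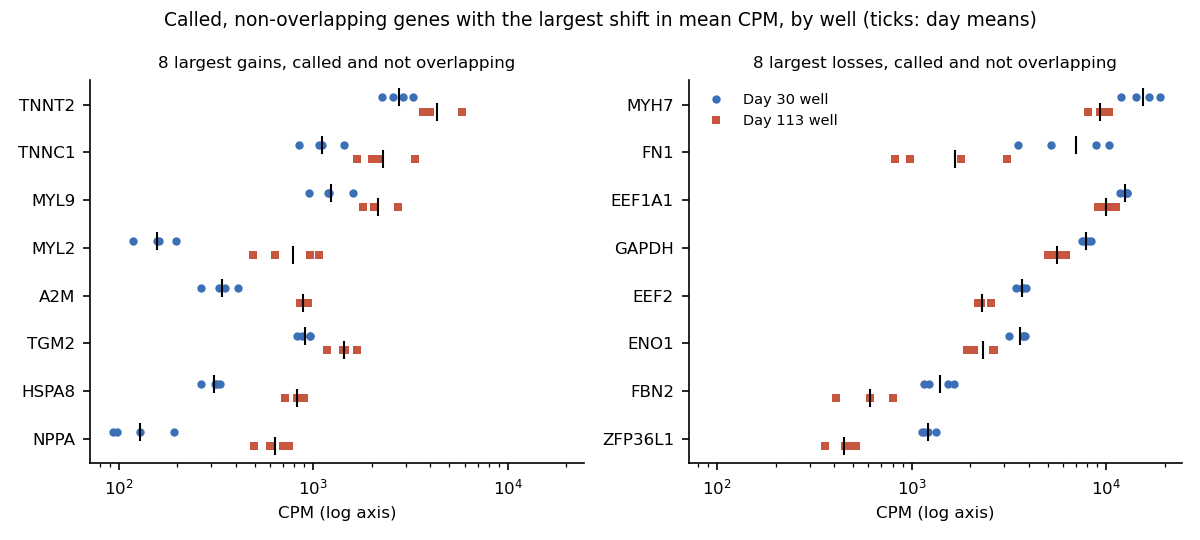
Level in each well (CPM, log axis) of the 8 genes with the largest gain and the 8 with the largest loss in mean CPM among genes called and not overlapping; circles are Day 30 wells, squares Day 113 wells and black ticks day means. FN1 is spread from 3530 to 10350 CPM on Day 30, while EEF2 stays between 3435 and 3872 CPM.

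Most abundant genes stayed within a narrow range. For 1342 of the 2173 (61.8%) the 95% interval of the change lay inside 1.5-fold in both directions, and these held 39.7% of all counts. Of them 289 were called, EEF1A1 among them, and 1053 were not. PLN, phospholamban, the inhibitor of the calcium pump of the sarcoplasmic reticulum, was at 3616, 3580, 3340 and 4290 CPM on Day 30 and at 3035, 3572, 3943 and 3943 CPM on Day 113. Its wells overlapped and its interval ran from -0.29 to 0.22 on the log2 scale. ATP2A2, the pump itself, was at 1491 ± 126 and 1511 ± 215 CPM (SD, n = 4), with an interval from -0.25 to 0.29. The atrial light chain MYL7 (interval -0.06 to 0.50), the tropomyosin TPM1 (-0.04 to 0.48), the small heat shock protein HSPB7 (-0.32 to 0.13), the translationally controlled protein TPT1 (-0.10 to 0.32) and NREP (-0.34 to 0.06) were within the same bound. Without Day 113 replicate 2 the log2 change was 0.06 for MYL7 and 0.10 for TPM1, in place of 0.22 for each.

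TTN, the giant spring of the sarcomere and the longest transcript among the abundant genes, had an interval of -0.46 to 0.49. It was at 6129, 4065, 4390 and 5970 CPM on Day 30 and at 6744, 2535, 5573 and 5956 CPM on Day 113. The low value of 2535 CPM was in Day 113 replicate 2, and without that well the change was 0.25 (adjusted p 0.2) in place of 0.02. Its direction turned to slightly negative under upper-quartile scaling (-0.0074), and the locus also carries an antisense gene whose reads could be counted with it if strand was not used.

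Among called genes with non-overlapping wells that reached 20 CPM on a day, the 8 highest and the 8 lowest folds were taken. The separation of the days was again fixed by the choice. COL5A3, a chain of collagen V, was at 0.191, 0.3, 0.0987 and 0.0344 CPM on Day 30 and at 36.4, 19, 20.2 and 7.94 CPM on Day 113 (7.03 ± 0.78 SE on the log2 scale, adjusted p 5.3e-06). LPL, lipoprotein lipase, which frees fatty acids from circulating triglyceride, was at 0.993, 1.33, 1.38 and 1.72 CPM against 73.8, 42.7, 58.5 and 42.1 CPM (39.8-fold higher). GABRA4, a GABA receptor subunit, was at 1.22, 1, 0.691 and 1.2 CPM against 47.3, 24.6, 39.8 and 39.6 CPM (36.8-fold higher). LPL and GABRA4 were tight within each day, whereas COL5A3 varied widely among its Day 113 wells.

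The proteoglycan OGN was 87-fold higher and the stress-linked nuclear protein NUPR1 38.2-fold higher. For 3 others a single well set the size of the fold. The alarmin IL33 was at 6.75 on the log2 scale and at 7.68 without Day 30 replicate 2, the elastin gene ELN was at 5.53 and at 6.72 without Day 30 replicate 3, and the melanin enzyme TYRP1 was at 6.29 and at 5.66 without Day 113 replicate 3. TYRP1 was at 4.3, 53.4, 122 and 57 CPM on Day 113, with replicate 1 low, and it was not called by limma-voom (adjusted p 0.122).

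The 8 lowest folds included liver and epithelial genes. AFP, alpha-fetoprotein, the serum protein of fetal liver and yolk sac, fell from 596, 666, 499 and 238 CPM to 1.3, 1.72, 1.6 and 1.16 CPM (344-fold lower, adjusted p 1.2e-10). GABRP, a GABA receptor subunit of epithelia, fell from 143, 460, 375 and 109 CPM to 1.76, 2.55, 1.88 and 1.2 CPM (146-fold lower). CLDN4, a tight junction claudin, was 143-fold lower. MUC16, a membrane mucin, had a mean of 54.6 CPM on Day 30 and no count in 3 of the 4 Day 113 wells. Set against a floor of 3 counts per library, it was at least 539-fold lower, or 442-fold without Day 30 replicate 3.

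The fitted folds of the other 4 moved by over 1.5 times when 1 well was left out. The immune checkpoint ligand VTCN1 was at -7.91 and at -8.82 without Day 113 replicate 2, and the integrin ITGB6 at -7.76 and at -9.07 without the same well. The fibrinogen chains FGB and FGA were at -7.45 and -7.13, and at -8.60 and -7.94 without Day 113 replicate 3. MUC16 moved as well, from -11.36 to -13.68 without Day 113 replicate 2. All of these lay below Day 30 in every Day 113 well, which the choice required.

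Gene lists, here and below, were read against the background of 17.3% higher and 17.2% lower and the all-gene median of -0.0175. That background is low for well-expressed genes, of which 44.5% were called at 10 to 100 CPM and 48.8% at 100 to 1000 CPM. Cholesterol and fatty acid synthesis (48.3% called) and endoplasmic reticulum stress (44.4%) lay near these shares. Calls in both directions are therefore no trait of a list by themselves. In the thin filament list, 7 of 16 genes were higher and 2 lower, with a median of 0.32. TNNI3, the cardiac inhibitory troponin, was at 84.3, 78.4, 66.1 and 83.5 CPM on Day 30 and at 227, 384, 309 and 273 CPM on Day 113 (3.82-fold higher), and the beta tropomyosin TPM2 was 1.69-fold higher. Without Day 113 replicate 2 the log2 change of TPM2 was 0.59 in place of 0.76. The slow skeletal troponin T gene TNNT1 was 2.19-fold lower, from 31 ± 3.13 to 14.1 ± 3.7 CPM (SD, n = 4). In the thick filament list 3 of 16 were higher (1 without Day 30 replicate 2) and 2 lower (1 without Day 30 replicate 1 or 4), a share near the background.

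In the Z-disc and cytoskeleton list, 8 of 20 were higher and 5 lower, so the list went both ways. DES, desmin, the intermediate filament that ties Z-discs together, was at 13.4, 11.7, 10.6 and 12.2 CPM against 42.1, 55.9, 42.7 and 37.5 CPM (3.72-fold higher). CRYAB, the small heat shock protein that guards desmin, was at 343, 348, 265 and 329 CPM against 713, 1006, 839 and 724 CPM (2.55-fold higher). ACTN2, the alpha-actinin that crosslinks thin filaments in the Z-disc, was at 1880, 1588, 1360 and 2013 CPM against 1120, 1134, 1080 and 1066 CPM (1.55-fold lower). All 3 separated the days completely.

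**Figure D4:**
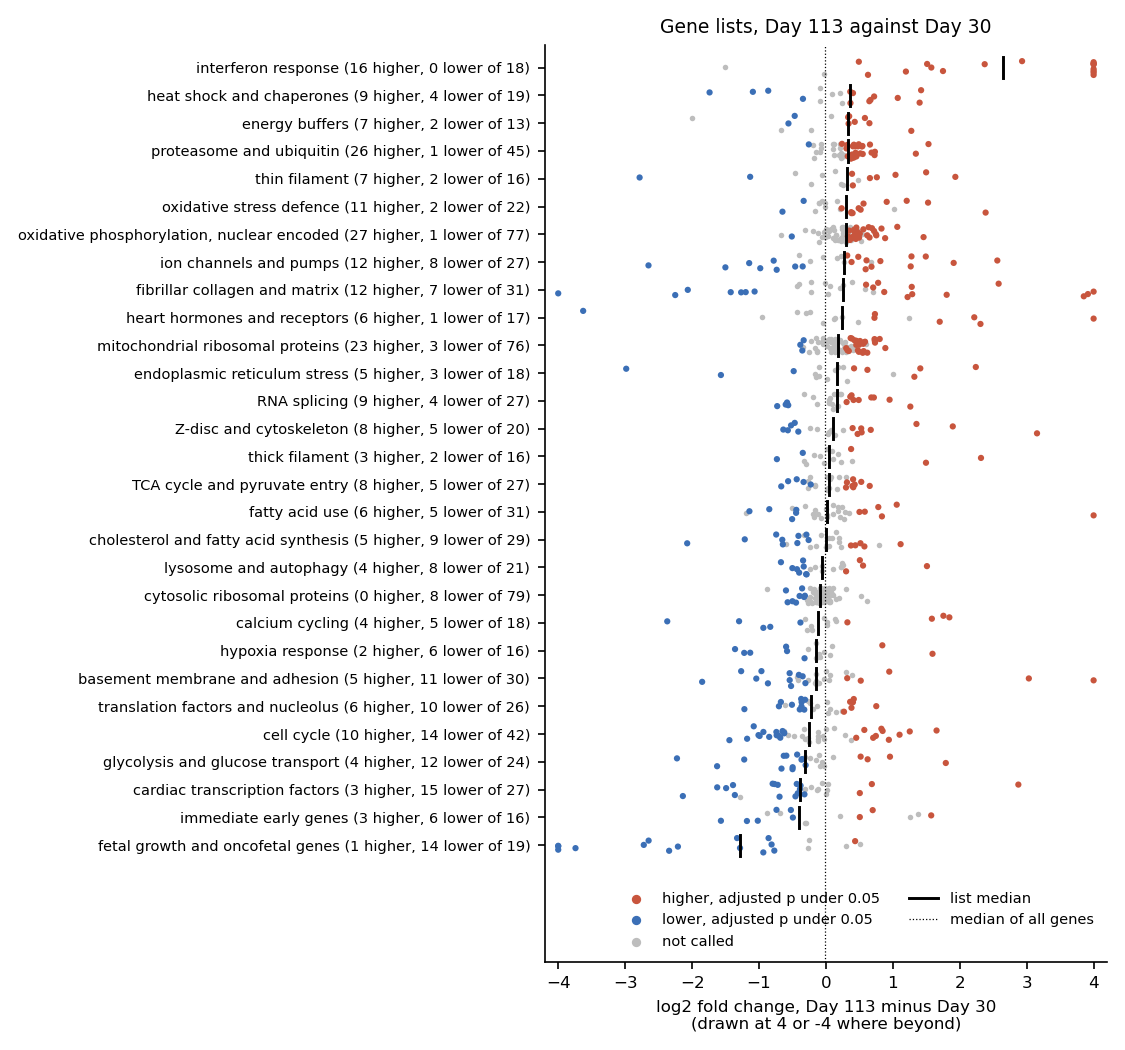
Each point is a gene of a list, placed by its log2 fold change between Day 30 and Day 113; red and blue points were called higher or lower, black bars are list medians and the dotted line is the median of all genes. Among these function lists of at least 10 genes, the interferon response list has the highest median (2.65) and the fetal growth list the lowest (-1.28). The interferon list includes 4 genes with no count in any Day 30 well, which could not be lower.

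Calcium handling and conduction genes also moved in both directions. Of 18 calcium cycling genes, 4 were higher and 5 lower (median -0.12). The calcium store protein CASQ2 was at 18.6, 17.5, 16.6 and 23.6 CPM on Day 30 and at 75.5, 44.5, 64.3 and 89.7 CPM on Day 113 (3.59-fold higher), and SRL, the sarcalumenin gene of the same store, was 1.91-fold lower. SRL was at 159 ± 21.7 CPM on Day 30 and at 83.4 ± 7.28 CPM on Day 113 (SD, n = 4).

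Of 27 ion channel and pump genes 12 were higher and 8 lower. Their summed level was 2740 to 3080 CPM in the Day 30 wells and 3440 to 3600 CPM in the Day 113 wells. GJA1, connexin 43 of ventricular gap junctions, was at 159, 185, 172 and 152 CPM against 393, 370, 472 and 373 CPM (2.41-fold higher). GJA5, connexin 40 of atria, conduction fibres and arterial endothelium, was at 20.1, 25.2, 19.7 and 23.8 CPM against 194, 117, 107 and 106 CPM (5.9-fold higher). The well with the highest GJA5, Day 113 replicate 1, also had the highest summed endothelial markers, and the part of those cells was not tested. CACNA1H, a T-type calcium channel of the fetal heart, was 6.28-fold lower, at 40.3, 43.9, 48.8 and 30.2 CPM against 3.78, 5.74, 10.1 and 6.34 CPM. Of 17 heart hormone and receptor genes, NPPA included, 6 were higher and 1 lower.

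Cardiac transcription factors were mostly lower. Of 27 genes 15 were lower and 3 higher, with a median of -0.39. HAND1, a factor of the early left ventricle, was at 84.9, 95.9, 90.5 and 71.7 CPM on Day 30 and at 26.6, 32.2, 31.8 and 31.4 CPM on Day 113 (2.81-fold lower, adjusted p 5.6e-08). GATA4, a zinc finger factor of heart and endoderm, was at 491, 454, 449 and 467 CPM against 285, 329, 306 and 230 CPM (1.62-fold lower). NKX2-5, a homeobox factor of the cardiac lineage, was at 372 ± 27.5 and 356 ± 80.8 CPM (SD, n = 4), with overlapping wells and an interval of -0.35 to 0.22. NR2F1, a nuclear receptor used as an atrial marker, was higher, at 2.6, 3.47, 7.87 and 1.75 CPM against 10.2, 24, 45.5 and 36 CPM. Its log2 change was 2.88, and 3.47 without Day 30 replicate 3.

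In energy metabolism, glycolysis was the list with most losses. Of 24 glycolysis and glucose transport genes, 12 were lower and 4 higher (median -0.31), and their summed level was 24700 to 28300 CPM on Day 30 and 18600 to 23800 CPM on Day 113. SLC2A3, a high-affinity glucose transporter, was at 679, 1009, 862 and 552 CPM against 158, 162, 149 and 195 CPM (4.68-fold lower). SLC2A1, the fetal heart glucose transporter, was at 702, 931, 824 and 651 CPM against 250, 269, 436 and 378 CPM (2.33-fold lower). ALDOC, an aldolase isoform of brain, went against the list, at 209, 223, 178 and 176 CPM against 530, 839, 730 and 625 CPM (3.46-fold higher). LDHA, lactate dehydrogenase A, was at 2046 ± 188 and 1744 ± 224 CPM (SD, n = 4), with overlapping wells and an adjusted p of 0.13. Its adjusted p was 0.0355 without Day 113 replicate 2.

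Nuclear-encoded genes of oxidative phosphorylation, the chain that makes ATP in mitochondria, showed 27 of 77 higher and 1 lower (median 0.30). Day 113 replicate 1 summed to 9870 CPM and replicate 2 to 15200 CPM, with 11000 and 12900 CPM in replicates 3 and 4, against 10300 to 10900 CPM on Day 30. Without replicate 2 the list had 21 higher and 4 lower (median 0.17), and without replicate 1 it had 52 higher. With GC content and length corrected it had 38 higher, or 42 with a replicate block as well. NDUFB2, a subunit of complex I, was at 42.7, 46.5, 49.1 and 56.6 CPM against 72.5, 140, 92.3 and 104 CPM (2.09-fold higher), and NDUFA5 of the same complex was 1.61-fold higher. SDHA, the flavoprotein of complex II, was lower, at 352, 314, 278 and 334 CPM against 205, 251, 201 and 240 CPM (1.42-fold lower). ATP5F1B, the catalytic subunit of ATP synthase and an abundant member of the list, overlapped between days (0.22 ± 0.11 SE, adjusted p 0.13), and its adjusted p was 0.0291 without Day 113 replicate 1.

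The tricarboxylic acid cycle list had 8 of 27 genes higher and 5 lower. It had 5 higher without Day 30 replicate 3 or without Day 113 replicate 4, 3 lower when Day 30 replicate 1 or 2 or Day 113 replicate 1 or 3 was left out, and its median of 0.05 turned to -0.0063 without Day 113 replicate 2. DLD, a subunit shared by the 2-oxoacid dehydrogenases, was 1.57-fold higher and IDH2, mitochondrial isocitrate dehydrogenase, 1.59-fold lower. Of 31 fatty acid genes, LPL included, 6 were higher and 5 lower (median 0.02). The share called, 35.5%, was near the 34.5% of all genes and below the 44.5% of genes at 10 to 100 CPM. HADHB, of the mitochondrial trifunctional enzyme, was at 222, 218, 220 and 229 CPM against 328, 449, 361 and 394 CPM (1.72-fold higher), and the fatty acid carrier FABP3 was 1.79-fold higher. PLIN2, the coat of lipid droplets, was at 37.3, 34.2, 36.4 and 36 CPM against 21.4, 22, 17.3 and 19.4 CPM (1.80-fold lower).

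The energy buffer list had 7 of 13 genes higher and 2 lower (4 higher without Day 30 replicate 3, 1 lower without Day 30 replicate 2). Without Day 113 replicate 2 it had 6 higher and 3 lower, with a median of 0.21 in place of 0.33. CKMT2, the sarcomeric mitochondrial creatine kinase, was at 112, 139, 115 and 112 CPM against 199, 356, 265 and 338 CPM (2.42-fold higher), and the muscle creatine kinase CKM was 1.5-fold higher. Without Day 113 replicate 2 the log2 change of CKM was 0.48 in place of 0.58. SLC25A5, the ADP/ATP carrier of growing cells, was 1.47-fold lower. In cholesterol and fatty acid synthesis 5 of 29 genes were higher and 9 lower, with a median near 0. The higher genes numbered 2 without Day 30 replicate 3, and 3 without Day 30 replicate 2 or Day 113 replicate 2 or 3. SC5D, a late enzyme of cholesterol synthesis, was at 500, 361, 434 and 585 CPM against 101, 116, 105 and 125 CPM (4.21-fold lower). SREBF2, the transcription factor that switches the pathway on, was 1.67-fold lower, and HMGCS1, an early enzyme, was 1.49-fold higher.

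Translation factors went both ways. Of 26 genes of this list, with nucleolar proteins, 10 were lower and 6 higher (median -0.22), and the summed level was 24200 to 25300 CPM in the Day 30 wells and 18400 to 22000 CPM in the Day 113 wells. EEF1A2, the elongation factor isoform of muscle and neurons, was at 1192, 1101, 1034 and 1114 CPM against 421, 585, 452 and 450 CPM (2.33-fold lower). EIF4G2, an initiation factor that works without the cap-binding protein, was higher, at 711, 732, 734 and 746 CPM against 1158, 1261, 1210 and 1294 CPM (1.68-fold higher, adjusted p 4.3e-06).

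Cytosolic ribosomal proteins were sensitive to single wells. Of 79 genes 8 were lower and 0 higher, under the background, with a median of -0.08. The list summed to 47200 to 49800 CPM on Day 30 and to 38000, 56700, 42000 and 45000 CPM in Day 113 replicates 1 to 4. Without replicate 2, whose short transcripts stood out, 25 were lower and the median was -0.21. Leaving out Day 113 replicate 1 gave 4 lower and a median of 0.01. The count of lower genes was 3 when Day 113 replicate 3 was left out, 4 when Day 30 replicate 2 was left out, and 5 when Day 113 replicate 4 or Day 30 replicate 3 or 4 was left out. RPS19, a small subunit protein, was 1.51-fold lower, from 742 ± 50.7 to 491 ± 112 CPM (SD, n = 4). Ribosomal protein genes have many pseudogenes, so these counts are uncertain.

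Mitochondrial ribosomal proteins had 23 of 76 genes higher and 3 lower (median 0.18). Without Day 113 replicate 2 there were 14 higher and 8 lower, with a median of 0.13. MRPS10 was 1.66-fold higher and MRPS25, whose wells were 76.7, 74, 75.7 and 74.7 CPM on Day 30 and 56.5, 58.9, 57.5 and 66.3 CPM on Day 113, was 1.26-fold lower. In RNA splicing 9 of 27 genes were higher and 4 lower. The splicing factor SRSF3 was at 78.7, 94.9, 85.7 and 90.3 CPM against 234, 234, 180 and 190 CPM (2.4-fold higher), with a Day 60 mean of 82.5 ± 5.72 CPM (SD, n = 3), and its relatives SRSF2 and SRSF5 were 1.93-fold and 1.64-fold higher. QKI, a splicing regulator of muscle and heart, was 1.52-fold lower and the pre-mRNA binding protein HNRNPC 1.48-fold lower.

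Proteasome and ubiquitin genes, which carry out protein breakdown, were higher more often than lower. Of 45 genes 26 were higher and 1 lower (median 0.33), and without Day 113 replicate 2 there were 23 higher and 0 lower (median 0.27). The list summed to 4290 to 4520 CPM on Day 30 and to 4840 to 5810 CPM on Day 113. PSMD1, a scaffold of the regulatory cap, was at 80.2, 93.6, 85 and 96.4 CPM against 151, 144, 136 and 157 CPM, and PSMC2, an ATPase of the same cap, was at 47.7, 47.1, 51.8 and 59 CPM against 80.3, 93.7, 78.6 and 89 CPM. Both were 1.66-fold higher with separate days. TRIM63, a ubiquitin ligase of the sarcomere, was 1.6-fold higher. The lower member, PSMD5, an assembly chaperone, was at -0.26 (adjusted p 0.038), and its call was lost when any of 5 wells was left out, with adjusted p-values of 0.0539 to 0.116 (Day 30 replicates 1, 2 and 4 and Day 113 replicates 2 and 3), in the fit of the 8 wells alone (0.0691) and with the replicate number as a block (0.0838).

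In heat shock and chaperones 9 of 19 genes were higher and 4 lower. The median was 0.36, and 0.17 without Day 113 replicate 2, with the same counts. HSP90AA1, the inducible HSP90, was at 562, 600, 641 and 635 CPM against 953, 1072, 929 and 1064 CPM (1.65-fold higher), opposite to HSP90AB1, and HSPB8 was 1.82-fold lower. In the endoplasmic reticulum stress list 5 of 18 were higher and 3 lower. TRIB3, a pseudokinase induced in that response, was 4.72-fold higher and the chaperone HSPA5 1.54-fold higher, while the stress cytokine GDF15 was 7.91-fold lower, at 19.3, 16.5, 19.1 and 12.9 CPM against 1.79, 1.91, 3.34 and 1.44 CPM. Oxidative stress defence had 11 of 22 higher and 2 lower (1 lower when any well but Day 30 replicate 4 and Day 113 replicate 2 was left out), with 5 of the 11 in the set of small consistent changes. Without Day 113 replicate 2 it had 9 higher and 3 lower. GPX3, the secreted glutathione peroxidase, was at 27.8, 31.8, 31.9 and 30 CPM against 66, 76.1, 70.5 and 67.8 CPM (2.31-fold higher), and SOD1 was 1.43-fold higher. Without Day 113 replicate 2 the log2 change of SOD1 was 0.39 in place of 0.52.

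Lysosome and autophagy genes had 4 of 21 higher and 8 lower (4 lower without Day 30 replicate 2 or Day 113 replicate 4, and 5 without Day 30 replicate 1). The acid lipase LIPA was 2.85-fold higher, the autophagy receptor SQSTM1 1.47-fold higher and the cholesterol carrier NPC2 1.59-fold lower. Immediate early genes had 3 of 16 higher (1 without Day 30 replicate 1) and 6 lower. JUN was at 266, 278, 296 and 301 CPM against 110, 217, 126 and 109 CPM (2.03-fold lower), and KLF2, a flow-responsive factor of endothelium, was 2.98-fold higher. Of 16 hypoxia response genes 2 were higher and 6 lower, with NDRG1 2.56-fold lower and EGLN3, the oxygen-sensing prolyl hydroxylase, 1.79-fold higher.

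Cell cycle genes went both ways. Of 42 genes 10 were higher and 14 lower, or 10 and 11 without Day 113 replicate 2. E2F1, the factor that opens S phase, was at 14.3, 14.6, 13.7 and 10.8 CPM on Day 30 and at 33.7, 56.6, 34.4 and 43.4 CPM on Day 113 (3.15-fold higher), and the replication clamp PCNA was at 17.9, 24.2, 19.7 and 17.3 CPM against 38.7, 60.2, 39.4 and 50.7 CPM (2.38-fold higher). The replicative helicase subunit MCM4 was 1.8-fold higher. In contrast the mitotic kinase PLK1 was at 37.1, 29.1, 23.7 and 27.8 CPM against 15.8, 8.14, 7.02 and 12.3 CPM (2.72-fold lower). The mitotic cyclin CCNB1 was 1.99-fold lower and CDC20, which activates the ligase that ends mitosis, 2.26-fold lower. Another 18 genes of the list were not called. The mitotic genes MKI67, TOP2A, CDK1, BUB1B, CENPF and KIF11 were among them, as were TYMS and MCM7 of DNA replication. On Day 60 PLK1 was at 37 ± 5.51 CPM and CDC20 at 34.5 ± 6.45 CPM (SD, n = 3), above their Day 30 means.

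Many promoters of mitotic genes hold a cell cycle homology region, TTTGAA, and it was looked up in RefSeq promoters of build GRCh38.p14, from 250 bases before to 50 after the start and on both strands. It was present in 17 of the 34 listed genes with a promoter entry (50%) and in 10.9% of 13692 promoters. Of the 8 genes that were higher, 0 held it, of the 11 that were lower 5 did (CCNB2, PLK1, CENPA, CDC20 and CDCA8), and of the 15 not called 12 did. A match is a description of the letters and not of a site in use. Windows of 4 of the 5 lower genes with a match are shown as examples, with the letters in capitals, in the reading direction of the gene:
PLK1, chr16:23678845-23678880, plus strand: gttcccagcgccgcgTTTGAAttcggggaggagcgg
CCNB2, chr15:59105102-59105137, plus strand: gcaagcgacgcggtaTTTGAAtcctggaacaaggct
CDC20, chr1:43358901-43358936, plus strand: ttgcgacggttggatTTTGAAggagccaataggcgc
CDCA8, chr1:37692478-37692513, plus strand: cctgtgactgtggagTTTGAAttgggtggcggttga

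In these windows the match began 29 bases before the start in PLK1 and CCNB2, 65 in CDC20 and 23 in CDCA8. The motif TCAAGGTCA of estrogen-related receptors was found in 1 of 62 oxidative phosphorylation promoters (SDHD) against 0.241% of all. The sterol motif TCACCCCAC was found in 1 of 22 promoters of the cholesterol list (SREBF2) against 0.402% of all.

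Genes of fetal growth were mostly lower. Of 19 genes 14 were lower and 1 higher (median -1.28), and the counts were 14 and 1 without Day 113 replicate 2 as well. HMGA2, a chromatin protein of embryonic growth, fell from 150, 173, 182 and 135 CPM to 5.05, 3.56, 5.11 and 5.46 CPM (33.3-fold lower, adjusted p 6.3e-12), with a Day 60 mean of 49.1 ± 6.11 CPM (SD, n = 3). IGF2BP1, a fetal RNA-binding protein, was at 233, 212, 201 and 218 CPM against 91, 78.5, 93.9 and 80.4 CPM (2.51-fold lower). PEG10, among the small consistent increases above, was the member that was higher.

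Interferon response genes were mostly higher. Of 18 genes 16 were higher and 0 lower (median 2.65), and 14 were higher without Day 113 replicate 2. Interferon acts through transcription factors that bind a GAAA repeat in the promoters of target genes. IFI6, a mitochondrial target gene, was at 15.8, 16.3, 13.6 and 22 CPM on Day 30 and at 49.5, 130, 142 and 28.6 CPM on Day 113 (5.18-fold higher), and IFIT2, a sensor of foreign RNA, was at 0.382, 1.43, 1.09 and 0.206 CPM against 12.8, 10.9, 16.1 and 12.4 CPM (16.6-fold higher). IFI44 had a count in 1 of the 4 Day 30 wells and was at 7.19, 8.89, 18.8 and 4.21 CPM on Day 113. Against a floor of 3 counts per library it was at least 93.9-fold higher, or 64.9-fold without Day 113 replicate 3. IFI44L, OAS1, OAS2 and XAF1 had no count in any Day 30 well, so these 4 could only be higher or not called. They are part of the list's counts and median. IFI27, MX2, OASL and RSAD2 were also sought but are not in the count table. B2M, the light chain of class I molecules, was 2.87-fold higher, at 50.9, 51.5, 59.9 and 59.2 CPM against 124, 201, 197 and 115 CPM.

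The days did not overlap for these interferon genes, and Day 113 replicate 3 was highest and replicate 4 lowest for IFI6 and IFI44. The summed list was 326 to 342 CPM on Day 30 and 463 to 864 CPM on Day 113. Summed endothelial markers, 90.2 to 138 CPM on Day 30 and 257 to 958 CPM on Day 113, were higher at Day 113 too, and their part in the list was not tested. The letters GAAANNGAAA were found on either strand in 9 of 13 listed promoters (69.2%) against 2.94% of all 13692. Windows of 5 of the 9 are shown, since all 9 genes were higher at Day 113, with the repeat in capitals:
ISG15, chr1:1013369-1013408, plus strand: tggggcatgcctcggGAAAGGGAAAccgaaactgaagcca
IFI6, chr1:27672324-27672363, minus strand: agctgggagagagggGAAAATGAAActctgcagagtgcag
IFI44L, chr1:78620360-78620399, plus strand: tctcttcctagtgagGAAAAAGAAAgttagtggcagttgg
BST2, chr19:17405736-17405775, minus strand: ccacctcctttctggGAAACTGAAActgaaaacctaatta
IFIT3, chr10:89327860-89327899, plus strand, match on the opposite strand: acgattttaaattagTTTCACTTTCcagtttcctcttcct

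Each is written in the reading direction of its gene. The 3 of 12 higher genes with a promoter entry but without GAAANNGAAA in this window were OAS1, IRF9 and XAF1.

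Matrix and adhesion genes went both ways. In fibrillar collagen and matrix 12 of 31 were higher and 7 lower, and in basement membrane and adhesion 5 of 30 were higher and 11 lower. COL2A1, the collagen of cartilage and early heart valves, fell from 804, 695, 642 and 611 CPM to 24, 24.6, 27.5 and 45.3 CPM (22.7-fold lower). COL1A1 was at 1417, 2284, 1993 and 1031 CPM against 4576, 2059, 3978 and 1691 CPM, with overlapping wells and an adjusted p of 0.032. It was not called without Day 30 replicate 1 (0.0926) or 4 (0.0967), Day 113 replicate 1 (0.103) or 3 (0.0975), nor by DESeq2 (0.0611) or with robust dispersions (0.112). COL3A1 was not called at an adjusted p of 0.061, with Day 113 wells at 5128, 2907, 4201 and 2255 CPM and Day 30 wells at 1712, 3138, 2744 and 1291 CPM. It was called without Day 30 replicate 2 (0.026) or Day 113 replicate 4 (0.0245), with the replicate number as a block (0.0213), with the GC and length correction (0.0384) and with both (0.00908).

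Day 113 replicates 1 and 3 held the most of both collagens. The same 2 wells had the highest summed fibroblast markers, but these collagens are in that list and make up most of its sum, so this is no separate observation. In Day 113 replicate 1 COL1A1 and COL3A1 stood at 4576 and 5128 of a summed 10200 CPM. In replicate 3 they stood at 3978 and 4201 of 8540 CPM.

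Junction and membrane genes of muscle differed among themselves. DSG2, a desmosomal cadherin, was at 198, 296, 257 and 186 CPM against 59.5, 59, 75.9 and 65.6 CPM (3.6-fold lower), and DSP, desmoplakin, which ties desmosomes to desmin, was at 909, 909, 838 and 746 CPM against 429, 353, 420 and 453 CPM (2.06-fold lower). ITGA7, the laminin receptor of muscle, was 1.93-fold higher, at 218, 212, 177 and 213 CPM against 380, 446, 383 and 371 CPM. SGCD, a sarcoglycan of the dystrophin complex, was 26.2-fold higher, at 0.732 ± 0.513 against 19.5 ± 7.33 CPM (SD, n = 4). All 4 genes separated the days.

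Markers of the labelled cell type were present in every well. The 9 cardiomyocyte markers summed to 38100, 30500, 26700 and 37000 CPM on Day 30 and to 30600, 30000, 28700 and 27600 CPM on Day 113, with overlapping ranges, 2 genes higher and 2 lower. Markers of other cell types also moved. Of 12 endothelial markers 11 were higher and 0 lower. PECAM1, the junction protein of endothelium, was at 18.1, 19.3, 17.3 and 10 CPM on Day 30 and at 347, 143, 169 and 84.5 CPM on Day 113 (11.5-fold higher), with a Day 60 mean of 10.8 ± 2.39 CPM (SD, n = 3). VWF, the clotting factor made by endothelium, was at 0.878, 1.5, 2.34 and 1.1 CPM against 117, 25, 49.6 and 20.4 CPM, a log2 change of 5.17, or 4.43 without Day 113 replicate 1. LYVE1, a hyaluronan receptor of lymphatic endothelium and macrophages, is not one of the 12 endothelial markers and was listed with the blood and macrophage markers. It had no count in any Day 30 well and was at least 55.8-fold higher against the floor, or 37.3-fold without Day 113 replicate 1. Replicate 1 was the highest Day 113 well for PECAM1, VWF and LYVE1.

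Of 10 fibroblast markers 7 were higher and 2 lower, and the list summed to 3400, 5730, 5040 and 2560 CPM on Day 30 and to 10200, 5260, 8540 and 4230 CPM on Day 113, with overlapping wells. COL1A1 and COL3A1 made up most of these sums. POSTN, periostin, was at 64.1, 48.4, 53.6 and 57.9 CPM against 285, 148, 194 and 155 CPM (3.49-fold higher), and the surface protein THY1 was 8-fold higher. PDGFRA, a growth factor receptor of mesenchyme, was at 150, 153, 155 and 117 CPM against 38, 22.5, 32.2 and 36.4 CPM (4.45-fold lower). Of 9 smooth muscle and pericyte markers 5 were higher and 0 lower, with ACTA2 3.39-fold higher. Of 10 epicardial and mesothelial markers 2 were higher and 5 lower. The epicardial factor WT1 was at 4.58, 6, 6.98 and 4.78 CPM against 41.2, 60.7, 39.6 and 45.9 CPM (8.37-fold higher), and the keratin KRT19 was 5.44-fold lower.

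Endoderm and epithelial markers were mostly lower. All 11 liver and gut markers in the table were lower, and they summed to 1440, 1540, 1170 and 525 CPM on Day 30 and to 12.7, 49.1, 28 and 31.5 CPM on Day 113. ALB, serum albumin, fell from 410, 393, 314 and 115 CPM to 6.67, 29.1, 11.2 and 15.8 CPM (19.8-fold lower). Of 10 epithelial markers 9 were lower and 0 higher. Their sum changed less, from 1830, 2490, 2060 and 1690 CPM on Day 30 to 1250, 1780, 1360 and 1080 CPM on Day 113, with overlapping wells. The epithelial adhesion protein EPCAM fell from 45.6, 92, 71.1 and 28.7 CPM to 0.779, 0.787, 1.54 and 0.762 CPM (60.1-fold lower). Day 30 replicate 4 was the lowest Day 30 well for AFP, ALB and EPCAM.

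Lens and retina markers had 10 of 12 genes higher and 0 lower, but the count ranged from 1 to 10 over the alternatives. It was 1 by limma-voom, and 6 when any Day 30 well or Day 113 replicate 2 was left out. CRYBA4, CRYGC, CRYGD and CRYBA2 had no count in any Day 30 well, so these 4 could only be higher or not called. The list summed to 29.4, 276, 346 and 213 CPM in Day 113 replicates 1 to 4 and to 13.4 to 33.4 CPM on Day 30, so replicate 1 overlapped with Day 30. PMEL, a pigment granule protein, was at 11.3, 27.2, 24.7 and 6.18 CPM against 16.2, 127, 208 and 135 CPM, and its days overlapped because of that well. The glial protein S100B was at 0.433, 3.37, 11.1 and 3.45 CPM on Day 113 and at least 44.1-fold higher against the floor (23.2-fold without Day 113 replicate 3), but it was not called by limma-voom (adjusted p 0.0914).

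The remaining lists were short. Of 10 neural and neural crest markers 1 was higher and 2 were lower, and of 8 cartilage markers 1 was higher and 3 were lower. Of 8 skeletal muscle markers 3 were higher and 2 lower (62.5% called). Only 3 blood and macrophage markers were in the table, and 7 were not, PTPRC and CD14 among them. The 1 that was higher was LYVE1, the gene cited above beside the endothelial markers. LYVE1, the cartilage gene ACAN and the skeletal muscle gene MYOD1 had no count in any Day 30 well, so they could not be lower. Of 12 antigen presentation genes 2 were in the table, B2M and NLRC5, and both were higher. The part that other cell types had in the changes of shared genes, matrix genes above all, was not tested.

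**Figure D5:**
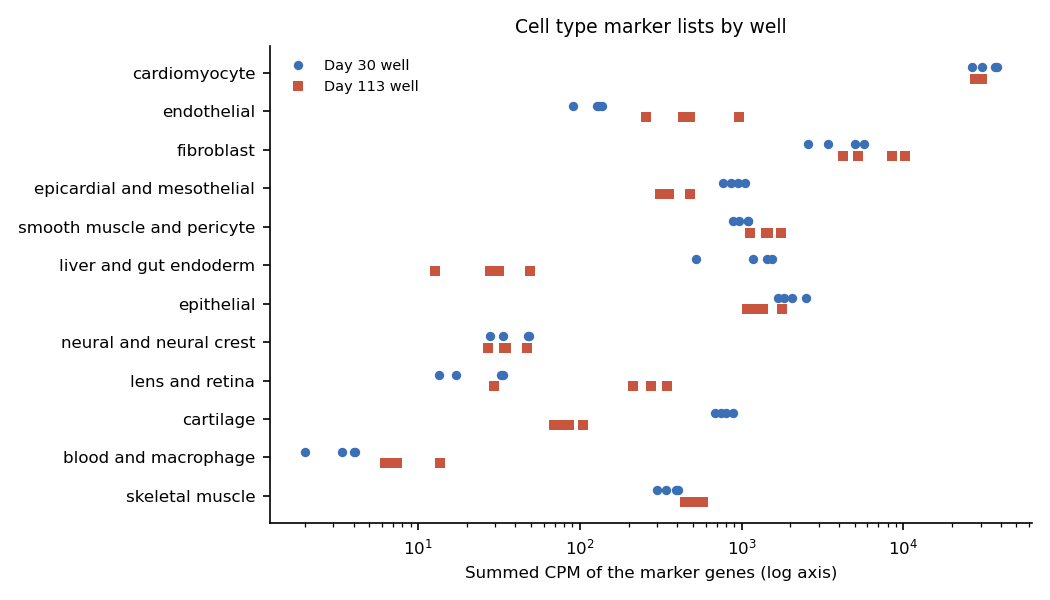
Summed level (CPM, log axis) of each cell type marker list in every Day 30 well (circles) and Day 113 well (squares). Endothelial sums are higher in all 4 Day 113 wells and liver and gut sums lower, while cardiomyocyte and fibroblast sums overlap between the days. COL1A1 and COL3A1 make up most of the fibroblast sums.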

How the data were processed

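Poly(A)-selected RNA of 11 wells (4 of Day 30, 3 of Day 60, 4 of Day 113) was sequenced as paired 150-base reads, per the labels' protocols. The authors deposited whole-number read counts per gene symbol, with no normalization, and STAR 2.5.3a, featureCounts 2.0.3 and hg38 are named in the submitters' processing notes without their roles. The annotation, multi-mapping and strand settings are not given in the sources used here, so counts of overlapping genes and near-identical families are uncertain. All count columns mapped to a sample by name (0 unmapped). A second deposited table, of TPM, was not used, because the gene lengths it implies differed between libraries.

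Counts of all 19990 genes were tested with edgeR 4.0.16 in R 4.3.3 (trimmed-mean scaling, quasi-likelihood F-test, day as factor, all 11 libraries sharing one estimate of spread). The edgeR filter at a minimum count of 10 removed 0 genes. P-values were adjusted by Benjamini-Hochberg over all genes at 0.05. Changes over 1.5-fold were tested with edgeR's test against that fold. SE is the log2 fold change divided by the root of F, and intervals are 95%. The floor of 3 counts per library, used for bounds, covers counting error only, and libraries had no molecular identifiers. The code was tested on simulated data. No 2 wells of a day agreed within sampling noise (chi-square per degree of freedom 11.4 to 84). Transcript lengths and GC content came from GENCODE for 84.8% of genes.

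Genes were named by rule: the 12 most abundant higher and lower small consistent changes, the 8 largest gains and losses in mean CPM among genes called with non-overlapping wells, the 8 highest and lowest folds among such genes of at least 20 CPM on a day, the 8 most abundant steady genes, and up to 6 per list. Members and lists were chosen with earlier results of these data known. Alternatives were other scalings and filters, DESeq2 1.42.0, limma-voom 3.58.1, robust dispersions, the 8 libraries alone, a GC and length correction (mgcv 1.9.3), a replicate block and each well left out. List counts under these alternatives, fold bounds with a well left out and the interferon motif search were added after seeing the data. Mitochondrially encoded genes were not named, and 3 genes of the lists are not reported here.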

Additional observations from a re-analysis of the deposited data

Results flagged for a closer look

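Wells far from the other 3 of their day were sought for each named gene, by the gap to the nearest well over the range of the 4. Of 313 groups 19 (6.07%) passed, where chance passes about 1 in 20, and the values are given with no explanation. For MUC16 on Day 113 and IFI44 on Day 30 the other 3 wells were at 0, so any count in the remaining well passed. Day 113 replicate 2 held 7 of them, of which TNNT2 at 5816, CKM at 517, ITGA7 at 446, JUN at 217 and MUC16 at 0.075 CPM were high and QKI at 407 and PSMD5 at 40.2 CPM were low. Day 113 replicate 1 was high for GJA5 at 194 CPM and low for PGK1 at 1122 and HAND1 at 26.6 CPM. Day 113 replicate 3 was low for SRSF2 at 117 CPM and high for EPCAM at 1.54 CPM, and Day 113 replicate 4 was high for COL2A1 at 45.3 CPM. On Day 30, replicate 4 was high for SLC16A1 at 695 CPM and low for PDGFRA at 117 CPM, replicate 3 was low for ENO1 at 3167 and ITGA7 at 177 CPM and high for IFI44 at 0.0329 CPM, and replicate 2 was high for CKMT2 at 139 CPM.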

How the results depend on the processing

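The count of 6889 called genes kept within 1.5 times under every alternative but a stricter adjusted p of 0.01, which left 4552, of which 2250 were higher. A lower abundance bound of 50 CPM gave 1157 small consistent changes in place of 573. A test against 2-fold in place of 1.5-fold left 1088 of 2180. With each well left out in turn, called genes numbered 5657 to 6801 (2797 to 3386 higher, 2860 to 3481 lower), small consistent changes 478 to 687, and changes over 1.5-fold 1789 to 2090. Changes over 1.5-fold were fewer by other methods, at 1698 by DESeq2 and 1500 by limma-voom. With the GC and length correction small consistent changes numbered 709. Same-numbered wells deviated together weakly (correlations 0.08 to 0.14 over 4 numbers, 3 of which correlated best with their own), so the numbers were not taken to pair the wells. With a replicate block 6871 genes were called (3532 higher, 3339 lower), with 552 small consistent changes and 2126 over 1.5-fold. Of 157 genes with values above, 145 were called, 132 of these under all 19 alternatives, and no called gene changed direction. Genes that were not called changed sign near 0. TTN was at -0.0074 by upper-quartile scaling, -0.05166 by limma-voom, -0.03288 with the replicate block and -0.1317 to 0.2459 without single wells (below 0 at -0.0165, -0.0687, -0.05103 and -0.05325). PLN was at -0.07968 to 0.04478 without single wells (above 0 also at 0.04397). HSPB7 was at 0.0002025 with the replicate block and GC and length correction. ATP2A2 was at -0.005892 by upper-quartile scaling and -0.07201 to 0.07915 without single wells (below 0 also at -0.02328). NKX2-5 was at 0.02814 with the correction, 0.04295 with correction and block, and -0.2268 to 0.02793 without single wells. The causes were not tested. Depth limits mostly the genes below 1 CPM, where the median SE was 1.00.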
